A study of Capra hircus with 4 samples.

Results

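The cyclin-dependent kinase (CDK) system of cultured secondary hair follicle stem cells of the cashmere goat (Capra hircus) was described through 66 genes out of 20326 in the deposited tables. The members were taken by gene symbol. They are the cyclins, the numbered CDKs, the INK4 and CIP/KIP inhibitors, the CKS subunits, the CDC25 phosphatases, E2F1 to E2F8 and the RB family of RB1, RBL1 and RBL2. Secondary follicles grow the fine cashmere undercoat. The cells came from dorsal skin and were cultured before RNA was taken, at mid anagen in October and at early anagen in April. Each phase has 2 libraries, 1 from a female and 1 from a male, and the labels give no treatment, genotype or age of the animals. Every mid anagen library is from October and every early one from April, so phase cannot be told apart from month. Nor can it be told apart from any difference in collection or culture between April and October.

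A cyclin binds a CDK and switches it on. D-type cyclins with CDK4 and CDK6 start the phosphorylation of RB proteins, which releases E2F factors that transcribe genes for DNA replication. Cyclins E and A with CDK2 carry the cell into and through S phase, and cyclins A and B with CDK1 drive mitosis. INK4 proteins block CDK4 and CDK6, and CIP/KIP proteins bind many cyclin-CDK complexes. A separate branch of the family, which includes CDK7, CDK8, CDK9, CDK12 and CDK13 with cyclins such as H, C, T and K, acts on RNA polymerase II. In the hair follicle, stem cells rest for long periods and divide at the onset of growth.

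Expression was read as a deposited abundance per gene. Its unit is not stated. It was taken as normalised for length, which is inferred from the named tools and the totals, and comparisons of levels between genes and ratios of genes rest on that. The read depth behind the values is unknown. Totals over all genes were 933211 and 844960 at mid anagen, against 1068429 and 1186966 at early anagen (female and male each). Of the 66 members, 61 reached a value of 1 in at least 2 libraries and were tested, and 60 of these were at 1 or more in every library. The exception was CDK14, under 1 in the early male library, so no member was tested through 1 phase alone. The 5 others were CCNA1, CCNO, CDK15, CDK18 and CCNI2, of which CCNI2 was listed at 0 in all 4 libraries. The members together took 0.263% and 0.315% of the total in the female and male mid libraries, against 0.272% and 0.255% in the female and male early libraries. The basal keratinocyte marker KRT14 was at 9603 and 8956 at mid anagen, against 20587 and 23511 at early anagen and was among the most abundant markers of the labelled epithelial cells. The log2 fold changes, mid over early, were -1.25 for KRT14 and -1.05 for KRT5, and neither passed. Other basal markers differed less, with ITGB4 at -0.26, while ITGA6, COL17A1 and TP63 overlapped between the phases. Of the bulge markers in the same list, LHX2 was at 31.7 and 32.1 at mid anagen, against 9.54 and 6.94 at early anagen, and rose at an adjusted p of 0.05 (log2 fold change, mid over early, 1.85, limma adjusted p = 0.0431). TCF7L1, LGR5 and SOX9 were also higher without overlap, with log2 fold changes of 2.40, 1.49 and 0.80 that did not pass. CD34 stayed under 1 in all libraries, and no row bears the symbol KRT15. The part of such differences in the member values was not tested.

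Most genes of the cell division branch had lower values at mid anagen, while genes of the transcriptional branch lay on both sides of 0. Over its 37 tested genes, the median log2 fold change of the cell cycle class was -0.46, against 0.01 for all 12486 tested genes and 0.016 for 14 transcriptional cyclins and kinases. Fold changes are mid over early on the log2(value + 1) scale. No member passed in limma at an adjusted p of 0.05, where 0.0801% of all tested genes passed as lower and 0.224% as higher. At an unadjusted p under 0.05, 18 members were lower and 6 higher, against 14.7% and 13.2% of all tested genes. All 18 lower ones belonged to the cell cycle class. The difference between the classes was not tested. Leaving out 1 library at a time, 5 members passed as lower without the mid male library (CCNA2, CCNB1, CCNB2, CCNF and CDK1), where 1.43% of all tested genes passed as lower and 1.53% as higher. Without the mid female library CKS2 passed as lower and CDK14 as higher, where 3.22% and 2.65% of all tested genes did. With either early library left out, no gene passed. Such fits take the spread of the single library left in a phase from the other phase. From bulk RNA, fewer dividing cells and less RNA per cell cannot be told apart.

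A plainer count is of genes whose values at the 2 phases do not overlap. In the cell cycle class 23 of 37 genes were lower in both mid libraries than in both early libraries, where 30.9% of all tested genes were. Another 7 of the 37 were higher without overlap, where 31.5% of all tested genes were. Among the 14 transcriptional genes 2 were lower and 6 higher without overlap, and among the 10 tested atypical cyclins and kinases 2 were lower and 4 higher. Over all 61 members the split was 27 lower and 17 higher. The split depends on scale. With each library rescaled to a common total it became 9 lower and 28 higher, against 12.7% and 57.2% of all tested genes. That rescaling moved the median of all genes from 0.01 to 0.32. Relative to the median of all genes, the cell cycle class stood at -0.47 as deposited and at -0.46 after rescaling, and the transcriptional class at 0.0046 and 0.024. After rescaling, CCND2, CDK14 and CDKN1C passed as higher and no member as lower, where 4.53% and 0.665% of all tested genes passed.

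**Figure D1:**
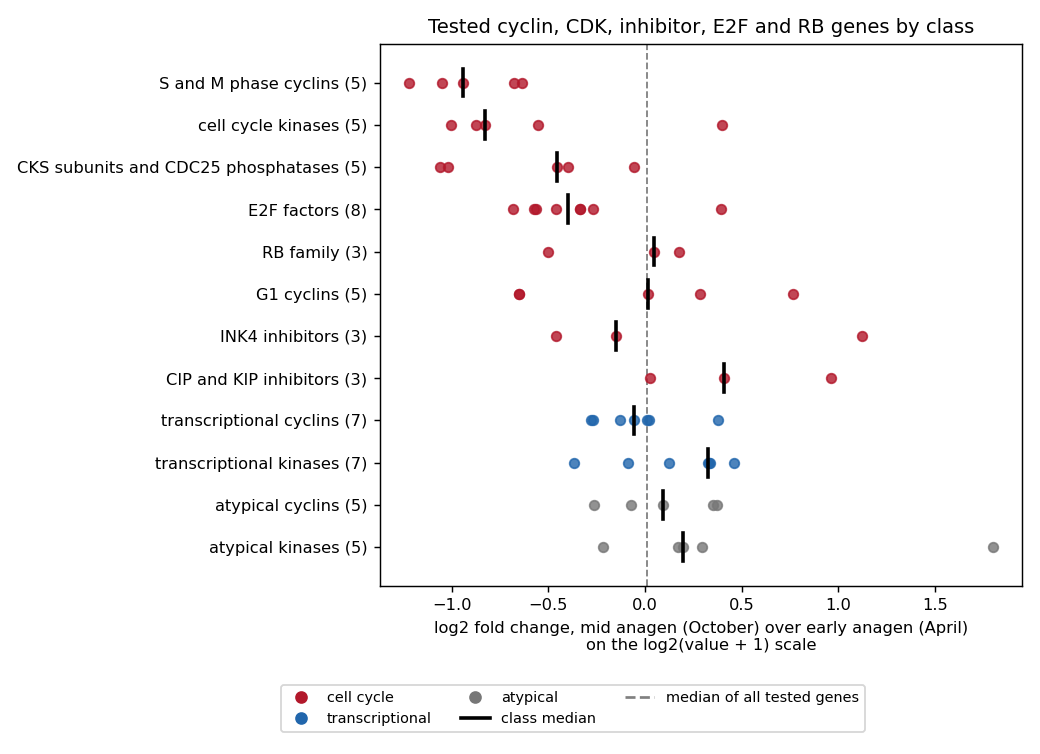
Log2 fold change, mid over early anagen, of the 61 tested genes by class, with 1 point per gene, a black bar at each class median and a dashed line at the median of all tested genes. The S and M phase cyclins (median -0.94) and the cell cycle kinases (median -0.83) lie farthest to the left, and CDK14 (1.80) lies farthest to the right.

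The cyclins of S phase and mitosis had the lowest class median. CCNB1, the cyclin that activates CDK1 for mitotic entry (GeneID 102188170), was at 84.4 and 110 in the female and male mid libraries, against 208 and 245 in the early libraries. Its log2 fold change was -1.22 (SE 0.20, limma adjusted p = 0.0724, n = 2 per phase). CCNB2, the other main mitotic B cyclin, was at 29.8 and 43.5 at mid anagen, against 72.7 and 78.7 at early anagen (log2 fold change -1.05, SE 0.21, limma adjusted p = 0.0775). CCNA2, which serves both S phase and mitosis, was at 53.7 and 77.5 at mid anagen, against 119 and 131 at early anagen (log2 fold change -0.94, SE 0.22, limma adjusted p = 0.0848). In all 3 genes both mid libraries lay below both early ones, and the male mid library was the higher of the mid pair. A second gene described as G2/mitotic-specific cyclin-B1, LOC102187875, could share reads with CCNB1. It was at 2.30 and 3.63 at mid anagen, against 8.47 and 7.67 at early anagen.

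CCNF, a cyclin that acts as the substrate receptor of a ubiquitin ligase, was at 12.3 and 19.9 at mid anagen, against 25.2 and 26.1 at early anagen. CCNB3, a B-type cyclin best known from mammalian meiosis, was at 9.06 and 11.9 at mid anagen, against 17.05 and 16.4 at early anagen (log2 fold change -0.64, SE 0.17, limma adjusted p = 0.101). All 5 tested cyclins of S phase and mitosis were thus lower without overlap, where 30.9% of all tested genes were. The germline cyclin CCNA1 was under 1 in every library. The ratio of CCNB2 to CCNB1 differed less between the phases than the level of either gene. It was 0.354 and 0.396 at mid anagen, against 0.349 and 0.322 at early anagen.

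The kinases of the division cycle followed the same order apart from CDK6. CDK1, the mitotic kinase (GeneID 100861361), was at 41.9 and 58.3 in the mid libraries, against 97.8 and 103 in the early libraries (log2 fold change -1.005, SE 0.20, limma adjusted p = 0.0766). CDK2, the partner of cyclins E and A, was at 16.5 and 18.7 at mid anagen, against 30.7 and 35.8 at early anagen (log2 fold change -0.87, SE 0.16, limma adjusted p = 0.0724). CDK4, a partner of D-type cyclins, was at 60.5 and 67.3 at mid anagen, against 104 and 126 at early anagen (log2 fold change -0.83, SE 0.17, limma adjusted p = 0.0782). The phases did not overlap in any of these kinases, and the female and male pairs of CDK2 gave close fold changes of -0.85 and -0.90. CDK4 and CDK2 are short, with genomic spans of 3090 and 5570 bp. With the trend on span removed from each library, the log2 fold changes were -0.60 for CDK4, -0.73 for CDK2 and -0.97 for CDK1.

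CDK6, which shares the D-type cyclins with CDK4, lay on the other side. It was at 21.2 and 27.3 at mid anagen, against 17.2 and 18.9 at early anagen (log2 fold change 0.40, SE 0.17, limma adjusted p = 0.209). Since CDK4 was lower and CDK6 higher, the ratio of CDK6 to CDK4 was 0.350 and 0.405 in the mid libraries, against 0.166 and 0.150 in the early libraries. With the span trend removed the log2 fold change of CDK6, a gene with a genomic span of 265385 bp, was 0.055, and without the mid male library it was 0.22. CDK4 remained the more abundant of the pair in every library. CDK3, a kinase linked to exit from quiescence in human cells, was scarce, at 3.14 and 1.55 at mid anagen, against 4.24 and 3.35 at early anagen.

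The CKS proteins are small adaptors that sit on CDKs and help them hold phosphorylated substrates. CKS1B (GeneID 102170650) was at 85.3 and 81.1 at mid anagen, against 156 and 196 at early anagen (log2 fold change -1.06, SE 0.18, limma adjusted p = 0.0724). CKS2 was at 140 and 104 at mid anagen, against 252 and 237 at early anagen (log2 fold change -1.02, SE 0.20, limma adjusted p = 0.0771). Both phases stood apart in each gene. Both genes are short, with genomic spans of 3926 and 4837 bp, and short abundant genes as a whole were lower. Among 1099 genes with a mean of at least 50 and a span under 10 kb the median log2 fold change was -0.47. The part of gene length in these values was not tested, and with the trend on span removed from each library the log2 fold changes were -0.87 for CKS1B and -0.85 for CKS2.

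**Figure D2:**
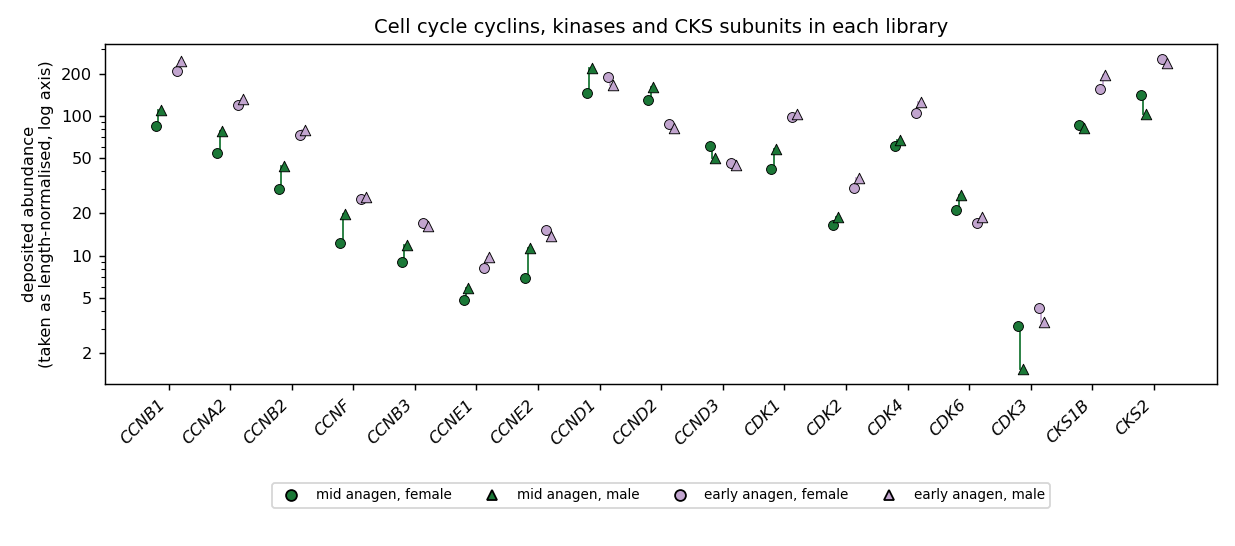
Deposited abundance on a log axis of the cell cycle cyclins, kinases and CKS subunits in each library, mid anagen left of early anagen for each gene, with circles for females and triangles for males. The mid points lie below the early points for CCNB1 (84.4 and 110, against 208 and 245) and above them for CCND2 (130.2 and 160, against 87.1 and 82.2), while the points of CCND1 overlap.

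The G1 cyclins were divided. The E-type cyclins, which activate CDK2 at the start of S phase, were lower. CCNE1 was at 4.81 and 5.86 at mid anagen, against 8.09 and 9.84 at early anagen (log2 fold change -0.65, SE 0.18, limma adjusted p = 0.103). CCNE2 was at 6.93 and 11.3 at mid anagen, against 15.2 and 13.9 at early anagen (log2 fold change -0.65, SE 0.24, limma adjusted p = 0.159). Neither gene overlapped between the phases. Without the mid female library the value for CCNE2 was -0.33, and at a pseudocount of 5 that for CCNE1 was -0.43.

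Of the D-type cyclins, the sensors of growth signals, CCND2 (GeneID 102180657) stood highest over early anagen. It was at 130.2 and 160 in the mid libraries, against 87.1 and 82.2 in the early libraries (log2 fold change 0.76, SE 0.17, limma adjusted p = 0.0839). CCND3 was at 60.9 and 50.2 at mid anagen, against 45.98 and 44.3 at early anagen (log2 fold change 0.29, SE 0.16, limma adjusted p = 0.299), and its log2 fold change was 0.091 with the span trend removed and 0.15 without the mid female library. CCND1 was the most abundant D-type cyclin in every library and its phases overlapped, with 146 and 220 at mid anagen, against 189 and 166 at early anagen. CCND2 made up 38.7% and 37.2% of the summed D-type cyclin level at mid anagen, against 27.1% and 28.1% at early anagen. CCND1 made up 43.2% and 51.1% at mid anagen, against 58.6% and 56.7% at early anagen.

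Because the D-type sum was not lower while the later cyclins were, the balance within a library differed between the phases. The D-type cyclins summed to 337 and 429.8 at mid anagen, against 322 and 292 at early anagen. Cyclins A2, B1 and B2 summed to 168 and 231 at mid anagen, against 399.6 and 454 at early anagen. Their ratio, D-type over later cyclins, was 2.00 and 1.86 in the mid libraries, against 0.805 and 0.643 in the early libraries. The mid libraries thus held more D-type than later cyclin RNA and the early libraries less. E-type over D-type cyclins was 0.0349 and 0.03998 at mid anagen, against 0.0724 and 0.0812 at early anagen. Such ratios do not depend on how a library is scaled. They were chosen after the values were seen and were not tested.

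**Figure D3:**
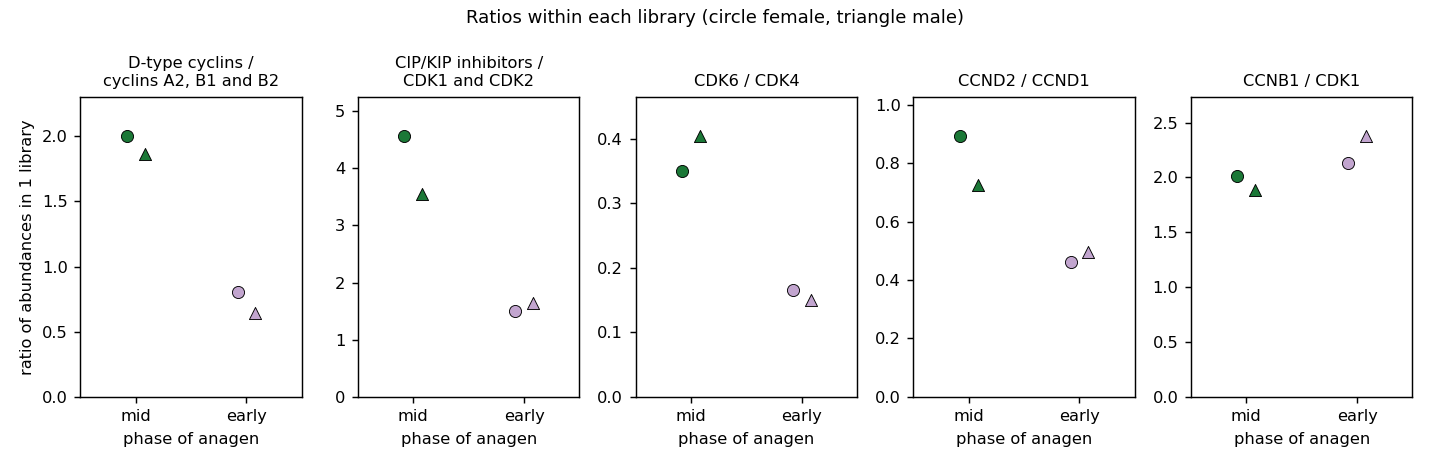
Ratios of abundances within 1 library, on linear axes that start at 0, with mid anagen left of early anagen, circles for females and triangles for males. Mid libraries lie at 2.00 and 1.86 for D-type over later cyclins, against 0.805 and 0.643 for early libraries, while CCNB1 over CDK1 lies at 2.01 and 1.89 for mid, against 2.13 and 2.38 for early libraries.

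The inhibitors did not share 1 direction. In the CIP/KIP family CDKN1C, which encodes p57 and has a place in cell cycle exit (GeneID 108634245), was at 5.64 and 5.97 at mid anagen, against 2.597 and 2.39 at early anagen (log2 fold change 0.96, SE 0.17, limma adjusted p = 0.0724). CDKN1A, which encodes the p53 target p21, was the most abundant inhibitor, at 232 and 239.98 at mid anagen, against 158 and 199.9 at early anagen (log2 fold change 0.41, SE 0.19, limma adjusted p = 0.230). CDKN1B, which encodes p27, overlapped between the phases, at 29.99 and 26.9 at mid anagen, against 31.7 and 24.4 at early anagen. CDKN1C was thus higher without overlap but far less abundant than CDKN1A, which was also higher without overlap. At a pseudocount of 5 the log2 fold change of CDKN1C was 0.53, and without the early female library that of CDKN1A was 0.24. The CIP/KIP sum over the sum of CDK1 and CDK2 was 4.57 and 3.54 at mid anagen, against 1.496 and 1.64 at early anagen.

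Among the INK4 inhibitors, CDKN2B, which encodes p15 and is a TGF-beta target in human keratinocytes, was at 25.9 and 37.8 at mid anagen, against 19.6 and 9.69 at early anagen (log2 fold change 1.12, SE 0.35, limma adjusted p = 0.126). The mid libraries lay above the early ones, and the 2 early libraries differed by more than the 2 mid ones on the log2 scale. Without the early male library the log2 fold change was 0.65. CDKN2C, which encodes p18, had the opposite sign, at 11.7 and 13.1 at mid anagen, against 18.7 and 16.2 at early anagen (log2 fold change -0.46, SE 0.15, limma adjusted p = 0.137). After rescaling to a common total its log2 fold change was -0.14, and with the span trend removed it was -0.33. CDKN2D, which encodes p19, overlapped between the phases, at 9.44 and 11.8 at mid anagen, against 14.4 and 9.62 at early anagen, and its small negative fold change became positive after rescaling or with the span trend removed. CDKN2A was not found by its symbol and is not analysed here.

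CDC25 phosphatases remove the inhibitory phosphates from CDKs. CDC25C, which acts at mitotic entry, was at 9.22 and 10.8 at mid anagen, against 14.3 and 13.9 at early anagen (log2 fold change -0.46, SE 0.15, limma adjusted p = 0.137). CDC25A, which also acts at the start of S phase, was at 9.39 and 9.28 at mid anagen, against 12.7 and 12.5 at early anagen (log2 fold change -0.40, SE 0.14, limma adjusted p = 0.144). Both were lower without overlap as deposited. After rescaling to a common total the log2 fold changes were -0.14 for CDC25C and -0.087 for CDC25A. CDC25B was more abundant than either in every library and overlapped, at 59.5 and 99.2 at mid anagen, against 81.6 and 78.5 at early anagen. CDKN3, a phosphatase of CDKs that the symbol rule does not take, was at 21.1 and 15.0 at mid anagen, against 30.2 and 34.8 at early anagen.

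E2F factors were lower in 7 of 8 cases by the sign of the fold change as deposited, and E2F3 turned to a log2 fold change of 0.048 after rescaling to a common total. After that rescaling E2F2 stood at -0.039 and E2F6 at -0.027. Of the 8 genes, 6 were lower without overlap, where 30.9% of all tested genes were. E2F8, a repressor induced late in the cycle, was at 4.97 and 7.90 at mid anagen, against 10.9 and 10.5 at early anagen (log2 fold change -0.68, SE 0.23, limma adjusted p = 0.134). E2F4, which works with the RB relatives in resting cells, was the most abundant E2F in every library except the mid female, at 37.0 and 43.8 at mid anagen, against 51.9 and 70.2 at early anagen (log2 fold change -0.57, SE 0.20, limma adjusted p = 0.147). E2F1, an activator of S phase genes, was at 10.1 and 15.7 at mid anagen, against 20.1 and 18.2 at early anagen (log2 fold change -0.57, SE 0.23, limma adjusted p = 0.181). Without the mid female library E2F8 stood at -0.40 and E2F1 at -0.27, without the mid male library E2F1 stood at -0.86, and without the early male library E2F4 stood at -0.36.

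E2F6, a repressor that does not bind RB proteins, was at 8.24 and 8.13 at mid anagen, against 10.6 and 10.6 at early anagen. E2F7, the close relative of E2F8, was at 3.23 and 5.21 at mid anagen, against 5.61 and 6.50 at early anagen. E2F5 was the only E2F with a positive fold change, at 37.7 and 25.3 at mid anagen, against 26.3 and 20.7 at early anagen, and its phases overlapped. E2F2 overlapped as well, at 3.40 and 8.46 at mid anagen, against 8.32 and 6.10 at early anagen. E2F5 in the mid female library, at 37.7, slightly exceeded E2F4 there, at 37.0. The activators E2F1 to E2F3 over E2F4 to E2F6 gave a ratio of 0.2895 and 0.453 at mid anagen, against 0.4595 and 0.375 at early anagen, so this balance did not separate the phases.

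In the RB family, RBL1, which encodes p107 and is itself induced by E2F, was at 10.3 and 13.0 at mid anagen, against 17.6 and 16.0 at early anagen (log2 fold change -0.50, SE 0.17, limma adjusted p = 0.140). RBL2, which encodes p130 and is typical of resting cells, was at 21.3 and 20.7 at mid anagen, against 20.3 and 20.3 at early anagen. RB1 was at 27.4 and 21.6 at mid anagen, against 23.1 and 19.9 at early anagen. RBL1 was the only one of these genes that was lower at mid anagen. The RBL2 and RB1 log2 fold changes of 0.045 and 0.18 were no larger than their SE of 0.13 and 0.18, and both became negative with the span trend removed.

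**Figure D4:**
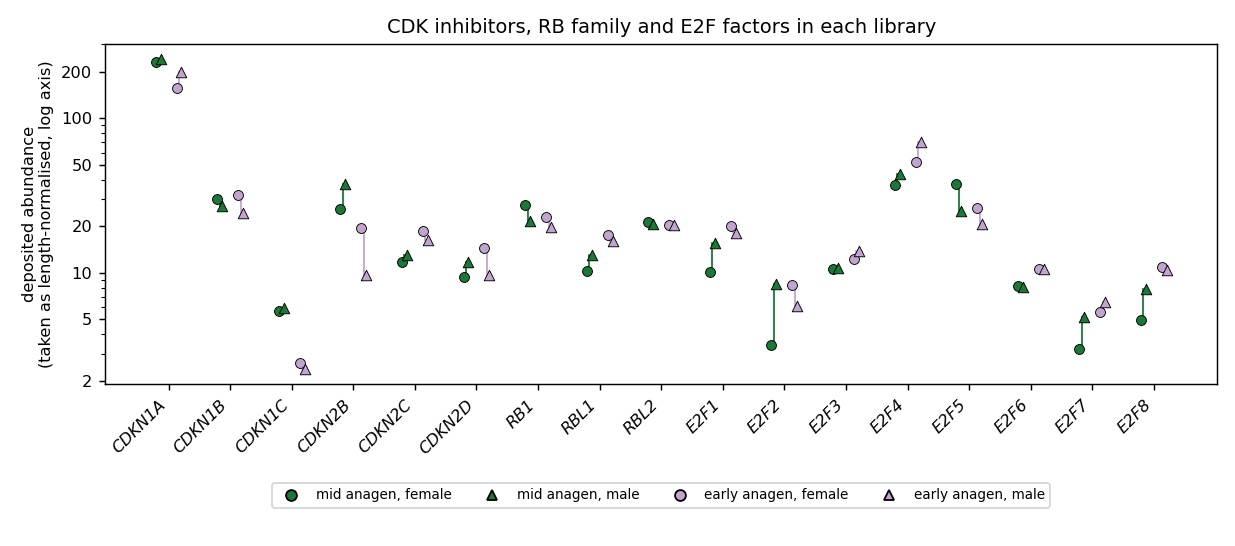
Deposited abundance on a log axis of the CDK inhibitors, RB family and E2F factors in each library, mid anagen left of early anagen for each gene, with circles for females and triangles for males. CDKN1A lies highest (232 and 239.98, against 158 and 199.9), CDKN1C lies above its early points (5.64 and 5.97, against 2.597 and 2.39), and RBL2 stays near 20.3 to 21.3 in all libraries.

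The kinases that act on RNA polymerase II were mostly higher at mid anagen, by small amounts. CDK13, which phosphorylates the polymerase during elongation (GeneID 102178697), was at 18.8 and 18.4 at mid anagen, against 13.7 and 12.8 at early anagen (log2 fold change 0.46, SE 0.14, limma adjusted p = 0.117). Its relative CDK12 was at 21.03 and 21.05 at mid anagen, against 16.4 and 16.8 at early anagen (log2 fold change 0.33, SE 0.13, limma adjusted p = 0.190). The Mediator kinases CDK8 and CDK19 were also higher without overlap. CDK8 was at 24.1 and 26.9 at mid anagen, against 18.5 and 21.7 at early anagen. CDK19 was at 16.9 and 17.7 at mid anagen, against 14.6 and 12.4 at early anagen. The kinase of the elongation factor P-TEFb, CDK9, was the most abundant of these genes in every library. It was at 91.5 and 85.3 at mid anagen, against 81.99 and 79.9 at early anagen, a gap smaller than its SE on the log2 scale (log2 fold change 0.12, SE 0.15). With the span trend removed the log2 fold changes were 0.22 for CDK13, 0.20 for CDK12, 0.17 for CDK8 and 0.06 for CDK19, and the median of these kinases was 0.17 in place of 0.33. Among genes with a mean of at least 50, those spanning over 100 kb had a median of 0.17 as deposited. Those spanning 10 to 100 kb had one of -0.09. CDK13, CDK12, CDK8 and CDK19 do not reach that mean, and CDK12 and CDK8 span 58210 and 76031 bp.

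CDK10, sorted here into the same class, went the other way. It was at 22.1 and 24.3 at mid anagen, against 28.2 and 32.4 at early anagen (log2 fold change -0.37, SE 0.15, limma adjusted p = 0.188). After rescaling to a common total its log2 fold change was -0.037. CDK7, which with cyclin H both activates other CDKs and acts in transcription factor TFIIH, overlapped, at 29.05 and 30.5 at mid anagen, against 28.5 and 35.3 at early anagen. CDK11B, listed under LOC102188159 and outside the rule, was at 56.5 and 69.2 at mid anagen, against 66.1 and 76.4 at early anagen.

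Of the 7 transcriptional cyclins, 5 overlapped between the phases, where 4706 of all 12486 tested genes did. CCNL1, a cyclin tied to splicing, was higher at 85.3 and 106 at mid anagen, against 71.0 and 74.7 at early anagen (log2 fold change 0.38, SE 0.17, limma adjusted p = 0.218), and without the mid male library its log2 fold change was 0.23. CCNC, the cyclin of the Mediator kinases, was lower at 31.2 and 26.9 at mid anagen, against 35.6 and 34.6 at early anagen (log2 fold change -0.27, SE 0.15, limma adjusted p = 0.293), a direction that flips after rescaling. CCNL2 was the most abundant cyclin of this branch, at 127 and 108 at mid anagen, against 124 and 108 at early anagen. The P-TEFb cyclins CCNT1 and CCNT2, with CCNK and CCNH, all overlapped and had log2 fold changes from -0.28 to 0.021. The signs of CCNT2, CCNK and CCNH flip after rescaling and that of CCNT1 with the span trend removed.

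Outside these branches CDK14, a kinase that binds cyclin Y and takes part in WNT receptor phosphorylation (GeneID 102176014), had the largest log2 fold change of any tested member on the log2(value + 1) scale. It was at 7.43 and 9.04 at mid anagen, against 2.56 and 0.960 at early anagen (log2 fold change 1.80, SE 0.32, limma adjusted p = 0.0724). Its partner CCNY was at 66.5 and 67.3 at mid anagen, against 51.9 and 52.6 at early anagen (log2 fold change 0.35, SE 0.14, limma adjusted p = 0.178). Both genes were higher without overlap. The CDK14 value depended on the settings, with 2.31 at a pseudocount of 0.1, 0.98 at a pseudocount of 5 and 1.33 with the span trend removed, where CCNY was at 0.13. CDK15, the closest relative of CDK14, was not tested and was at 1.67 and 0.739 at mid anagen, against 0.404 and 0 at early anagen.

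Markers of fibroblasts were read as well, and those tested had higher values at mid anagen. All 7 tested of 10 listed fibroblast and dermal papilla markers were higher without overlap at mid anagen, where 31.5% of all tested genes were. FBN1 alone among them passed (log2 fold change 2.84, limma adjusted p = 0.0323). The list summed to 357 and 346 at mid anagen, against 21.5 and 81.2 at early anagen. VIM was the largest part of each sum, at 187 and 298 at mid anagen, against 20.6 and 78.5 at early anagen. COL1A1 was at 58.6 and 19.8 at mid anagen, against 0.179 and 0.987 at early anagen. DCN was at 0 in the early female library, while PDGFRA, SOX2 and CORIN were under 1 in every library. The part of such cells in the member values was not tested. All 4 endothelial markers were under 1 in every library, with CDH5 at 0, and of the immune markers PTPRC was at 0 throughout and CD3E under 1. CD14 was at 12.6 and 8.52 at mid anagen, against 3.28 and 2.49 at early anagen, and CD68 overlapped between the phases at values from 2.40 to 4.41.

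Among the other atypical members, CCNI was higher without overlap, at 109.7 and 101 at mid anagen, against 81.9 and 80.5 at early anagen. CCNG1, a p53 target, was lower at 91.2 and 98.5 at mid anagen, against 103 and 127 at early anagen, a direction that flips after rescaling. CDK16, best known for its place in spermatogenesis, was at 45.8 and 52.3 at mid anagen, against 44.4 and 40.9 at early anagen. CDK20 was lower at 6.26 and 6.29 at mid anagen, against 7.61 and 7.29 at early anagen, which also flips after rescaling. CCNG2, CCNJ, CDK5 and CDK17 overlapped between the phases.

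The female and male pairs were then set side by side. Of the 61 tested members, 28 were lower and 21 higher in both pairs, against 37.1% and 39.3% of all tested genes, and 12 had opposite signs. For the cell cycle class, the female pair had a median of -0.58 and the male pair one of -0.29. Over all tested genes these medians were 0.017 and 0.0063. In 14 of the 23 cell cycle genes that were lower without overlap the female pair had the more negative value. The same share over all tested genes was not computed. CCNF, CCNE2, E2F1 and E2F8 were among the 14. Their log2 fold changes were -0.98, -1.03, -0.93 and -1.001 in the female pair and -0.38, -0.27, -0.20 and -0.37 in the male pair. CKS1B and CKS2 were more negative in the male pair, at -1.26 and -1.18, than in the female pair, at -0.86 and -0.85. The members differed by a median of 0.25 on the log2 scale between the mid female and male libraries and by 0.14 between the early ones. With 1 library per phase and sex, a difference between the pairs cannot be tested.

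**Figure D5:**
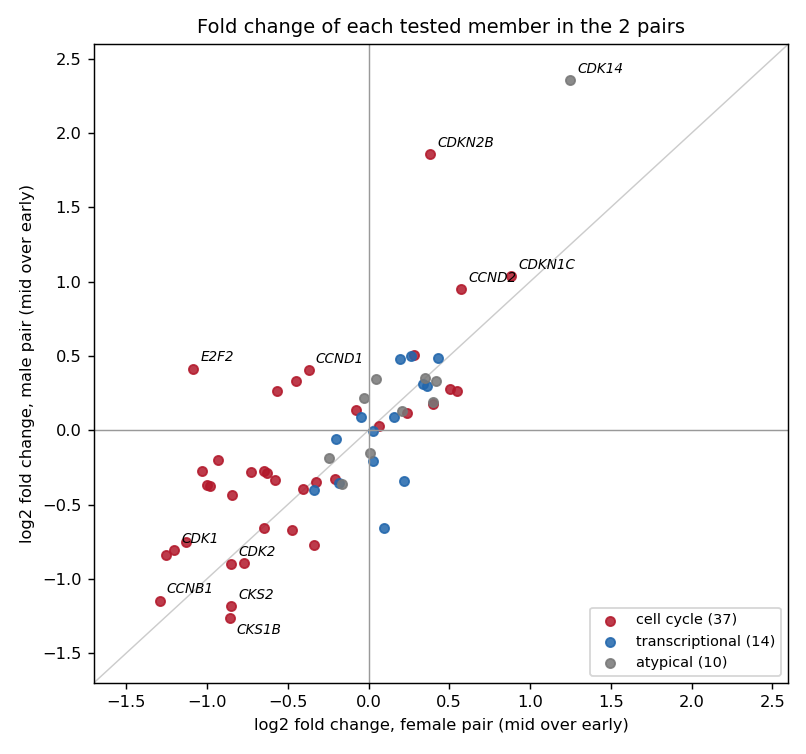
Log2 fold change, mid over early anagen, of the 61 tested members in the female pair (horizontal axis) and the male pair (vertical axis), with 1 point per gene coloured by branch and the diagonal marking equal values. CCNB1 (-1.29 and -1.15) and CDK2 (-0.85 and -0.90) lie near the diagonal, while CDKN2B (0.38 and 1.86) and E2F2 (-1.08 and 0.41) lie far from it.

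The genes around the CDK system were read from lists chosen by function. Of 25 genes driven by E2F or acting with CDKs in S phase and mitosis, 0 passed over all genes in limma, 22 were lower at an unadjusted p under 0.05 and all 25 were lower without overlap, against 14.7% and 30.9% of all tested genes. Their median log2 fold change was -0.92. ORC1, a subunit of the origin recognition complex, was at 9.29 and 12.8 at mid anagen, against 23.0 and 29.2 at early anagen. PCNA, the replication clamp, was at 59.99 and 81.3 at mid anagen, against 139 and 154 at early anagen. Both genes were lower in each mid library. GMNN, the geminin that restrains origin licensing, was at 46.7 and 48.6 at mid anagen, against 76.0 and 91.5 at early anagen.

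Of 31 other CDK regulators and E2F partners, 30 were found and tested, 0 passed in limma, and at an unadjusted p under 0.05 there were 5 lower and 4 higher. These counts are near the 14.7% and 13.2% of all tested genes. Without overlap 18 were lower and 6 higher, against 30.9% and 31.5% of all tested genes. Single genes are given as values only. CDC20, which directs the destruction of cyclin B at anaphase, was at 93.4 and 122.97 at mid anagen, against 218 and 216 at early anagen. PKMYT1, a kinase that inhibits CDK1, was at 16.6 and 22.8 at mid anagen, against 32.2 and 35.7 at early anagen. CABLES1, a CDK-binding adaptor, was higher at 7.03 and 8.38 at mid anagen, against 5.25 and 4.21 at early anagen. The median of this list was -0.19, against -0.92 for the output genes. Lower values of S phase and mitotic genes at mid anagen were known when these lists were used, so they are no separate support for the pattern.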

How the data were processed

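RNA from 4 libraries (total RNA, NEB Ultra kit per the labels' protocols) was quantified by the authors. The submitters' processing notes name kallisto 0.46.1 together with sleuth 0.30.0. The deposited signal is an abundance per gene, taken here as normalised for length from the tools and the totals. Its values were not whole and their totals differed between libraries. The sources used here do not give the genome build, the annotation or the step from transcripts to genes. Depth is unknown, so no counting interval is given. Members and gene lists were chosen with earlier results of these data known.

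Values were taken as log2(value + 1) and fitted with limma 3.58.1 in R 4.3.3, with phase as the only term and an intensity trend. Genes that reached 1 in 2 or more libraries, 12486 in all, entered the fit, and the Benjamini-Hochberg adjustment ran over all of them. Fold changes with SE and adjusted p are given for up to 4 members per class with the smallest p, and mostly values alone for the others. Genomic spans came from the RefSeq table of ARS1.2, where all 66 members were found by GeneID. No coordinates are printed. P-values rest on the spread between 2 libraries per phase, a female and a male, that the labels call biological replicates. For each gene limma moderates that spread towards the intensity trend over all tested genes, so a p-value is not set by its own libraries alone. Alternatives were pseudocounts of 0.1 and 5, no filter, a filter of 5, a replicate block, rescaling to a common total, removal of the span trend, no intensity trend and leaving out each library. A planned search of promoters for motifs was not run.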

Additional observations from a re-analysis of the deposited data

Results flagged for a closer look

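In 3 members the female and male pairs moved in opposite directions by at least 0.3 on the log2 scale. These differences were not tested, since each rests on 1 library per phase and sex. The share of all tested genes that meet the same rule was not computed, so the count is a description only. The log2 fold change of CCND1, mid over early, was -0.37 for females and 0.41 for males. That of CDC25B was -0.45 for females and 0.33 for males. E2F2, an activator of S phase genes, gave -1.08 for females and 0.41 for males. In females E2F2 was at 3.40 at mid anagen, against 8.32 at early anagen. In males it was at 8.46 at mid anagen, against 6.10 at early anagen.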

How the results depend on the processing

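With 2 libraries per phase, no member passed as deposited, and none passed with either other pseudocount, with either other filter, with the span trend removed or with no intensity trend. With the replicate block, where the number equals the sex, 9 members were called lower (CCNA2, CCNB1, CCNB2, CCNE1, CDK1, CDK2, CDK4, CKS1B and CKS2) and 3 higher (CCND2, CDK14 and CDKN1C), where 6.93% and 7.34% of all tested genes were called lower and higher. The labels do not say that a number marks related animals, and female minus male differences of the 2 phases correlated at 0.29 across genes. Rescaled to a common total, the same 3 members were called higher and none lower. The medians became -0.14 for the cell cycle class and 0.34 for the transcriptional class. Members without overlap became 9 lower and 28 higher, against 12.7% and 57.2% of all tested genes. Leaving out 1 library at a time, 0 to 5 members were called lower and 0 to 1 higher, against 0 to 3.22% and 0 to 2.65% of all tested genes. Members without overlap ran from 29 to 34 lower and 18 to 23 higher, against 36.9% to 41.6% and 38.6% to 43% of all tested genes, and the medians ran from -0.56 to -0.35 for the cell cycle and from 0.036 to 0.15 for the transcriptional class.

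Of 45 members given with a fold change by the rule, 6 changed sign after rescaling, to small positive values: CCNC 0.063, CCNG1 0.074, CCNK 0.20, CCNT2 0.0496, CDK20 0.084 and CDKN2D 0.16. With the span trend removed 3 did, CDKN2D at 0.072, RB1 at -0.049 and RBL2 at -0.046. Leaving out 1 library turned the sign of CCNG2 (from -0.076 to 0.26 over these fits), CCNK (from -0.27 to 0.011), CDKN1B (from -0.15 to 0.21) and CDKN2D (from -0.42 to 0.12). The causes were not tested.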
